A study of Mus musculus with 25 samples.

Results

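The cholesterol genes of the liver were followed through a mouse model of fatty liver disease and through feeding with mannose, a simple sugar. The set holds 31 genes taken by symbol from the 56980 genes of the deposited count table, of which 52073 carried a symbol. It was chosen by role, with earlier results of these data known, so the counts of its genes called are not independent of those results. The roles are 8 enzymes of the mevalonate steps (Acat2, Hmgcs1, Mvk, Pmvk, Mvd, Idi1, Fdps, Ggps1), 11 enzymes that build the sterol from squalene onward (Fdft1, Sqle, Lss, Cyp51, Tm7sf2, Msmo1, Nsdhl, Hsd17b7, Ebp, Sc5d, Dhcr7), 4 genes that control the transcription factor SREBP2 (Srebf2, Scap, Insig1, Insig2), 3 genes of uptake, transport and storage (Mylip, Stard4, Soat2) and 5 genes of the efflux arm under the receptor LXR (Nr1h3, Abca1, Abcg1, Abcg5, Abcg8). All 31 had enough counts to be tested in every comparison.

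Poly(A) RNA was sequenced from whole liver of male C57BL/6J mice that entered the study at 8 weeks of age. Chow with 1.25% cholesterol, 41% sucrose and 21.1% fat made up the FAT-MASH regimen together with drinking water with 23.1 g/L fructose and 18.9 g/L glucose and a weekly intraperitoneal injection of CCl4, a hepatotoxin. Its groups of 3 mice each received no mannose (FAT-MASH), 5% or 20% mannose in the water for all 12 weeks (prevention), or 5% or 20% mannose for the final 6 weeks (therapy). Mice on normal chow received no mannose (5 mice), 5% mannose (2 mice) or 20% mannose (3 mice), and for these the labels give a duration of 12 weeks. The libraries carried 1 of 2 batch labels. The first batch held all FAT-MASH groups and 3 normal-diet mice, and the second held the other 2 normal-diet mice and both normal-diet mannose groups. The FAT-MASH groups thus share cholesterol feeding, sugar and CCl4, and the parts of the regimen cannot be told apart. The labels describe numbered biological replicates but do not say which mice shared a cage.

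Total counts ran from 31298299 to 56010646 in the 18 libraries of the first batch and from 35971380 to 49752882 in the 7 of the second. No pair of libraries of the same group agreed within sampling noise, as 1 library deposited under 2 names would: the lowest chi-square per degree of freedom between any such pair was 21.2. Summed levels of 8 hepatocyte markers (Alb, Ttr, Apoa1, Trf and others) were between 79840 and 128300 CPM (counts scaled to the size of the library) in every library. CPM values were scaled within each batch, so mice of the first batch are set against normal diet of the first batch, and mice of the second against normal diet of the second. The batches were not level on normal diet itself: the mean of each synthesis enzyme in the second batch was between 33.5% and 113% of that in the first, with a median of 63.9%.

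Cholesterol is built from acetyl-CoA through mevalonate, isoprenoids and squalene. When membranes of the endoplasmic reticulum hold little sterol, SCAP carries SREBP2 to the Golgi, where SREBP2 is cut and released to switch on the enzymes of the pathway. When sterol is plentiful, INSIG proteins hold the SCAP and SREBP2 complex back. Sterol surplus also gives oxysterols that activate LXR, whose targets export cholesterol: ABCG5 and ABCG8 together secrete sterols into bile, ABCA1 and ABCG1 load lipoproteins, and MYLIP (also called IDOL) marks lipoprotein receptors for breakdown. Dietary cholesterol is a classic brake on hepatic synthesis.

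On normal diet in the first batch, expression per kilobase of exon ranged widely within the set. Insig1, which retains SCAP, stood highest at 294 CPM per kilobase, followed by the sterol desaturase Sc5d at 190 and the hydroxymethylglutaryl-CoA synthase Hmgcs1 at 179. The transporter Abcg1 was lowest at 0.984 CPM per kilobase, below the isoprenoid synthase Ggps1 at 2.52 and the ubiquitin ligase Mylip at 2.66. Abcg5 and Abcg8, at 21.2 and 20.5 CPM per kilobase, lay close together in the lower part of the list.

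Promoter windows from RefSeq (GRCm38.p6, 250 bases before to 50 bases after the annotated start, written along the strand of the gene) existed for 25 of the 31 genes. The 6 shown are enzymes that changed in FAT-MASH livers, Hmgcs1, Idi1, Msmo1 and Hsd17b7, beside the efflux pair Abcg5 and Abcg8. Capitals mark the NF-Y box CCAAT on either strand (ATTGG on the written one) and the sterol regulatory element TCACNCCAC. The windows are chr13:119690101-119690400 (+) for Hmgcs1, chr13:8885356-8885655 (+) for Idi1, chr8:64733529-64733828 (-) for Msmo1, chr1:169969156-169969455 (-) for Hsd17b7, chr17:84682962-84683261 (-) for Abcg5 and chr17:84682871-84683170 (+) for Abcg8.
Hmgcs1: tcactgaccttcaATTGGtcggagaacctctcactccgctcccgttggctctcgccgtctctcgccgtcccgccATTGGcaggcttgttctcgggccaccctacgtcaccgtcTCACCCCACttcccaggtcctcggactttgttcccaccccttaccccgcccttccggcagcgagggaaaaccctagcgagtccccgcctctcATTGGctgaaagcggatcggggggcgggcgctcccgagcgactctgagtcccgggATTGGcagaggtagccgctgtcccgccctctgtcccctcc
Idi1: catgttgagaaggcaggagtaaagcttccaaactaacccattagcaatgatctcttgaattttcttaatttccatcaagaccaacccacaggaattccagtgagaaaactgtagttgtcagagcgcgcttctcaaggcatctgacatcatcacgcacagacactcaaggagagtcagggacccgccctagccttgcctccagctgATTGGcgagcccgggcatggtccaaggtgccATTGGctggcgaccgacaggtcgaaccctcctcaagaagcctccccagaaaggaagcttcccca
Msmo1: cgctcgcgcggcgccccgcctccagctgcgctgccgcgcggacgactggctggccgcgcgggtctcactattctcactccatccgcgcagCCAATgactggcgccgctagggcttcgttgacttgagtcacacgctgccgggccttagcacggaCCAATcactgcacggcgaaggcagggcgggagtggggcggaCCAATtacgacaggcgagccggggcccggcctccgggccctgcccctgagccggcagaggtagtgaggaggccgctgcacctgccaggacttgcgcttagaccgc
Hsd17b7: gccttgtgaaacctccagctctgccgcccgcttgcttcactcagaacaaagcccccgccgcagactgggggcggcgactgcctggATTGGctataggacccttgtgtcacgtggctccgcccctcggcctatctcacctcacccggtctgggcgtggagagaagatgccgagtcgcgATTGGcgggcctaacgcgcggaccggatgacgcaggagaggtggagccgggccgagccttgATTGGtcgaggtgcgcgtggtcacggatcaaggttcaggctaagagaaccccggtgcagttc
Abcg5: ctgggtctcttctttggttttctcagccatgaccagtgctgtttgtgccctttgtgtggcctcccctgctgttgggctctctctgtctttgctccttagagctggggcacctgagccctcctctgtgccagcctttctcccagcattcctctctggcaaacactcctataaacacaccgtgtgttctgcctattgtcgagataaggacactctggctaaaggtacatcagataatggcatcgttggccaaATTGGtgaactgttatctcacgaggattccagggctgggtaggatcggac
Abcg8: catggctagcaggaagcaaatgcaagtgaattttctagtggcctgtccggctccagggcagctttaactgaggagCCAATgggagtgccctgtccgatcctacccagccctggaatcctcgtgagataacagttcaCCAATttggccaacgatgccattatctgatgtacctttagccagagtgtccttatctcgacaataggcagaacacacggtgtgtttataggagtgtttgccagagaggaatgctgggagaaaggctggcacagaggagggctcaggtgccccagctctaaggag

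CCAAT, the letters bound by NF-Y, was found on either strand in 15 of the 16 synthesis enzymes with a window and in 2 of the 4 efflux genes with one, against 41.1% of the 27025 genes in the RefSeq table. The Sp1 box GGGCGG was present in 14 of the 16 enzymes and in 1 of the 4 efflux genes, against 38.2% of all genes. TCACNCCAC was found in Hmgcs1 only, 137 bases before the start, against 1.44% of all genes. A longer, stricter form of that element and the LXR direct repeat, in a strict and a looser form, matched in none of the 25 genes on either strand. They were present in 0.0999%, 0.0148% and 0.292% of all genes. In the windows shown, Abcg5 and Abcg8 are transcribed away from each other and share 209 bases, so the letters of one are in large part the reverse complement of the other. The CCAAT match of Abcg5 is the Abcg8 match 114 bases before the start, read on the other strand, so the same site is counted for both genes. Abcg8 had another window, chr17:84676052-84676351 (+), not shown, which held no match and did not overlap that of Abcg5. A match describes letters in these windows, not binding.

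In FAT-MASH livers the synthesis arm fell almost as a whole while Abcg1, Abcg5 and Abcg8 of the efflux arm rose. Against normal diet, 18 of the 19 synthesis enzymes were lower and none was higher at an adjusted p below 0.05, and 3 of the 5 efflux genes were higher and none lower. Over all 31 genes, 6 were higher and 22 lower. Of all 19571 genes tested, 7.81% were called higher and 5.92% lower. The median log2 fold change was -2.32 over the synthesis enzymes and 1.37 over the efflux genes, beside 0.03 over all genes tested.

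**Figure D1:**
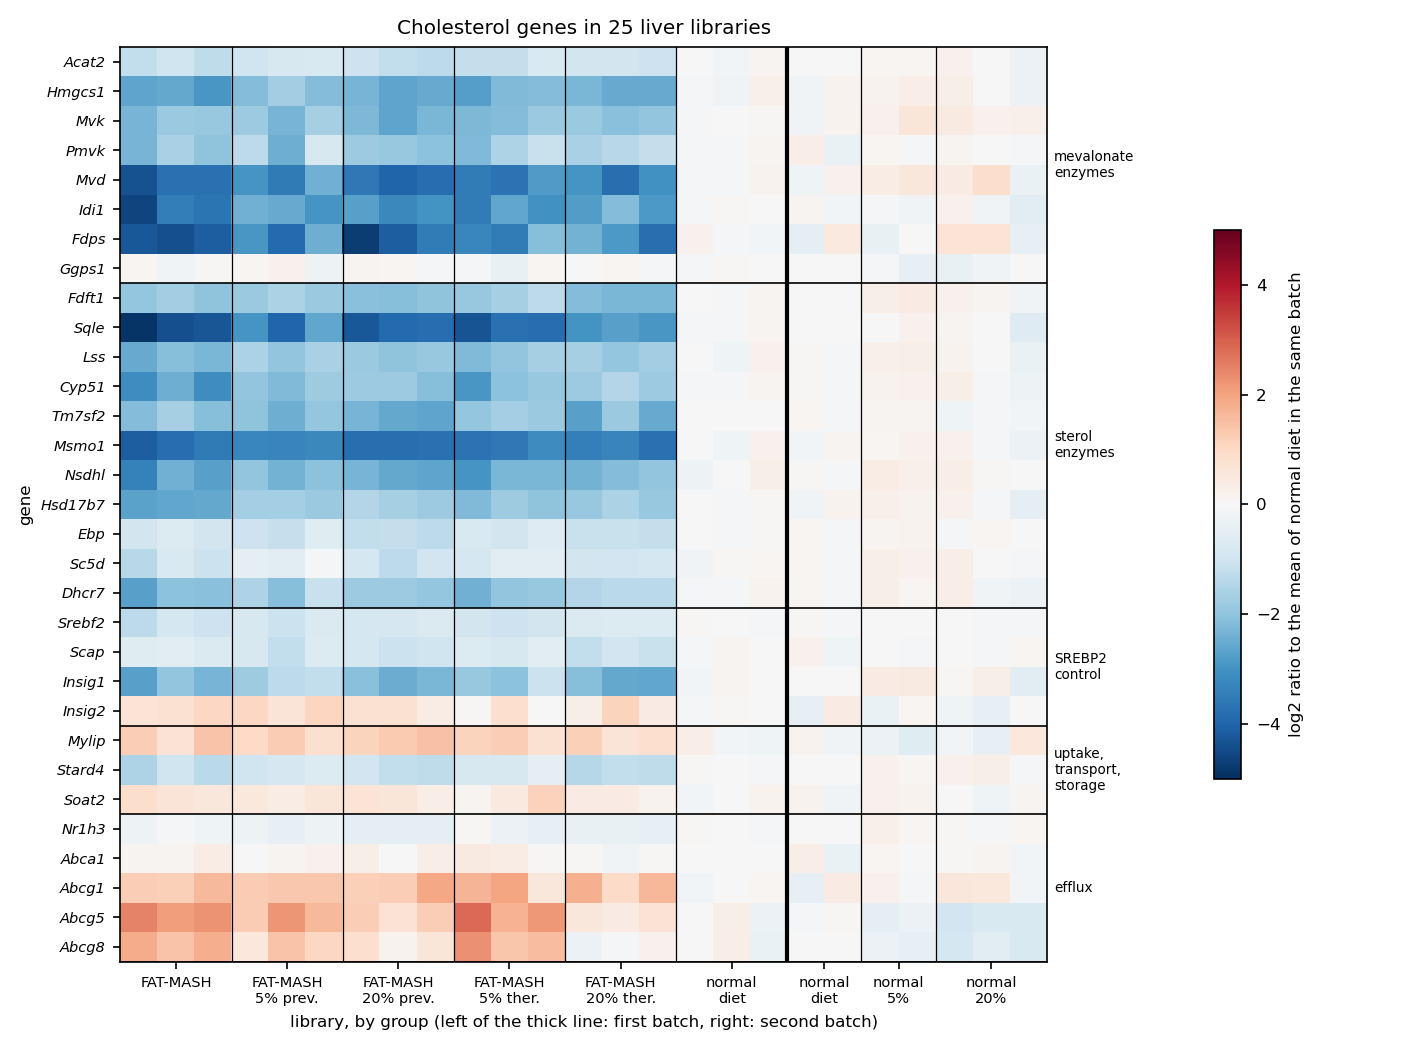
Level of each of the 31 genes (rows, by role) in each of the 25 libraries (columns, by group) as the log2 ratio to the mean of normal diet in the same batch, after adding 0.1 to each CPM. Blue synthesis rows and red Abcg1, Abcg5 and Abcg8 rows fill the FAT-MASH groups, and the Abcg5 and Abcg8 rows are pale in the 20% therapy columns.

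The fall was deep both in the mevalonate steps and after squalene. Sqle, the squalene epoxidase that catalyses a rate-limiting oxygenation (chr15:59186926-59203041 on GRCm39), had 4.14, 5.93 and 6.45 CPM in FAT-MASH livers, against 121, 123 and 140.0 CPM in normal-diet livers. Its log2 fold change of -4.55 ± 0.27 (SE; adjusted p = 2.60e-09) was the largest of the 31. Idi1, the isomerase that makes dimethylallyl diphosphate, had 2.52, 5.60 and 4.85 CPM in FAT-MASH livers, against 60.2, 65.4 and 61.9 CPM on normal diet, and every FAT-MASH library lay far below every normal-diet library for both genes. Hmgcs1, which condenses acetyl-CoA with acetoacetyl-CoA, had 131, 137 and 109.9 CPM in FAT-MASH livers, against 764, 725 and 982 CPM on normal diet. The mean of Hmgcs1 in FAT-MASH was 15.3% of that on normal diet, of Idi1 6.91% and of Sqle 4.30%.

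Other enzymes of the mevalonate steps fell to different extents. The decarboxylase Mvd changed by -3.95 ± 0.29 (SE) and the farnesyl diphosphate synthase Fdps by -4.40 ± 0.47, whereas the thiolase Acat2 changed by -1.17 ± 0.12 and the kinases Mvk and Pmvk by -2.02 ± 0.17 and -1.96 ± 0.30. Fdps rests on few reads, 5470 counts over all 25 libraries, and shares 26.7% of its exonic bases with an overlapping gene on the same strand, so its level is uncertain. Ggps1, which makes geranylgeranyl diphosphate for protein prenylation and so stands on a side branch, was the single enzyme not called. It had 12.9, 10.6 and 12.5 CPM in FAT-MASH livers, against 11.5, 12.5 and 11.6 CPM on normal diet, a change of 0.01 ± 0.15 (SE; adjusted p = 0.973), and the groups overlapped.

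All 11 enzymes from squalene synthesis onward were lower in FAT-MASH. Msmo1, the sterol C4-methyl oxidase, had 24.4, 30.8 and 37.0 CPM in FAT-MASH livers, against 432, 365 and 498 CPM on normal diet, with a log2 fold change of -3.81 ± 0.17 (SE; adjusted p = 3.43e-11). Cyp51, the lanosterol demethylase, had 29.7, 47.7 and 29.7 CPM in FAT-MASH livers, against 244, 253 and 285 CPM on normal diet. Hsd17b7, the sterol 3-keto reductase, had 18.3, 19.5 and 19.9 CPM in FAT-MASH livers, against 120.2, 112 and 122 CPM on normal diet, with the 3 FAT-MASH values close together. Ebp and Sc5d had the smallest changes of the 11. The isomerase Ebp changed by -0.84 ± 0.12 and Sc5d by -1.07 ± 0.16, against -2.27 ± 0.20 for the final reductase Dhcr7, -2.32 ± 0.15 for the lanosterol synthase Lss, -2.81 ± 0.23 for the decarboxylating dehydrogenase Nsdhl, -1.97 ± 0.19 for the sterol reductase Tm7sf2 and -1.89 ± 0.13 for the squalene synthase Fdft1 (log2 fold change ± SE). Fdft1 shares 18.8% of its exonic bases with Ctsb on the opposite strand and Tm7sf2 shares 12.1% with Vps51 on its own strand, and reads over such shared bases were not assigned.

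The genes that control SREBP2 divided. Insig1, itself a known SREBP2 target, had 138, 228 and 182 CPM in FAT-MASH livers, against 819, 1004 and 903 CPM on normal diet, a log2 fold change of -2.32 ± 0.23 (SE; adjusted p = 1.36e-06). Insig2, the family member not driven by SREBP2, went the other way, with 596, 632 and 752 CPM in FAT-MASH livers, against 357, 379 and 369 CPM on normal diet and a log2 fold change of 0.84 ± 0.22 (SE; adjusted p = 0.0127). Srebf2, which encodes SREBP2, changed by -1.06 ± 0.11 and Scap by -0.62 ± 0.12. The 2 INSIG genes thus moved in opposite directions with no overlap between groups. The call for Insig2 was lost without normal-diet replicate 1 (log2 0.80, adjusted p = 0.0514) and without FAT-MASH replicate 3 (log2 0.72, adjusted p = 0.0671).

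Among uptake, transport and storage genes, Mylip had 19.8, 14.1 and 22.6 CPM in FAT-MASH livers, against 10.7, 7.68 and 7.34 CPM on normal diet, and was higher by 1.13 ± 0.20 (log2 ± SE; adjusted p = 8.83e-04). Soat2, the sterol O-acyltransferase that esterifies cholesterol in hepatocytes, had 94.9, 81.6 and 76.9 CPM in FAT-MASH livers, against 47.4, 50.8 and 58.6 CPM on normal diet, a change of 0.69 ± 0.18 (SE; adjusted p = 0.0136). That call was lost without normal-diet replicate 1 (adjusted p = 0.0702), normal-diet replicate 2 (adjusted p = 0.0547) or FAT-MASH replicate 1 (adjusted p = 0.0628). Stard4, a sterol carrier that is a known SREBP2 target, changed by -1.28 ± 0.14 with the enzymes.

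In the efflux arm, the biliary sterol transporter genes rose most. Abcg5 (chr17:84965662-84990439, minus strand, GRCm39) had 318, 244 and 271 CPM in FAT-MASH livers, against 56.7, 69.6 and 46.3 CPM on normal diet, a log2 fold change of 2.27 ± 0.26 (SE; adjusted p = 6.14e-06). Abcg8 (chr17:84983730-85007761, plus strand) had 273, 202 and 270.1 CPM in FAT-MASH livers, against 75.5, 95.1 and 60.4 CPM on normal diet, a change of 1.69 ± 0.25 (SE; adjusted p = 1.74e-04). The lowest FAT-MASH value exceeded the highest normal-diet value for both. Abcg1 was lower in abundance and rose too, with 16.8, 16.7 and 22.1 CPM in FAT-MASH livers, against 6.52, 7.34 and 7.69 CPM on normal diet (log2 1.37 ± 0.28, SE; adjusted p = 0.00279). Nr1h3, which encodes LXR alpha, and Abca1, which lipidates apolipoprotein A-I, were not called. Abca1 had 214, 216 and 254 CPM in FAT-MASH livers, against 196, 196 and 197 CPM on normal diet (log2 0.22 ± 0.12, SE; adjusted p = 0.246), every FAT-MASH liver being above every normal-diet liver. Nr1h3 changed by -0.19 ± 0.10 (SE; adjusted p = 0.249). It had 120.9 to 136.1 CPM in FAT-MASH livers, against 139.9 to 149 CPM on normal diet, every FAT-MASH liver being below every normal-diet liver.

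Other cell types also moved between these groups. Of 10 macrophage markers, 9 were higher in FAT-MASH, and their summed level was 717 to 1306 CPM in FAT-MASH livers, against 356 to 376 CPM on normal diet, with Trem2 at 0 counts in normal-diet replicate 3. Of 8 stellate cell markers, 6 were higher, with sums of 466 to 601 CPM in FAT-MASH livers, against 247 to 301 CPM on normal diet. Of 8 hepatocyte markers, 2 were lower, with sums of 105500 to 116800 CPM in FAT-MASH livers, against 113700 to 128300 CPM on normal diet. The part of these shifts in the changes of the cholesterol genes was not tested. In whole liver, fewer cells of a type and less RNA per cell cannot be told apart.

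**Figure D2:**
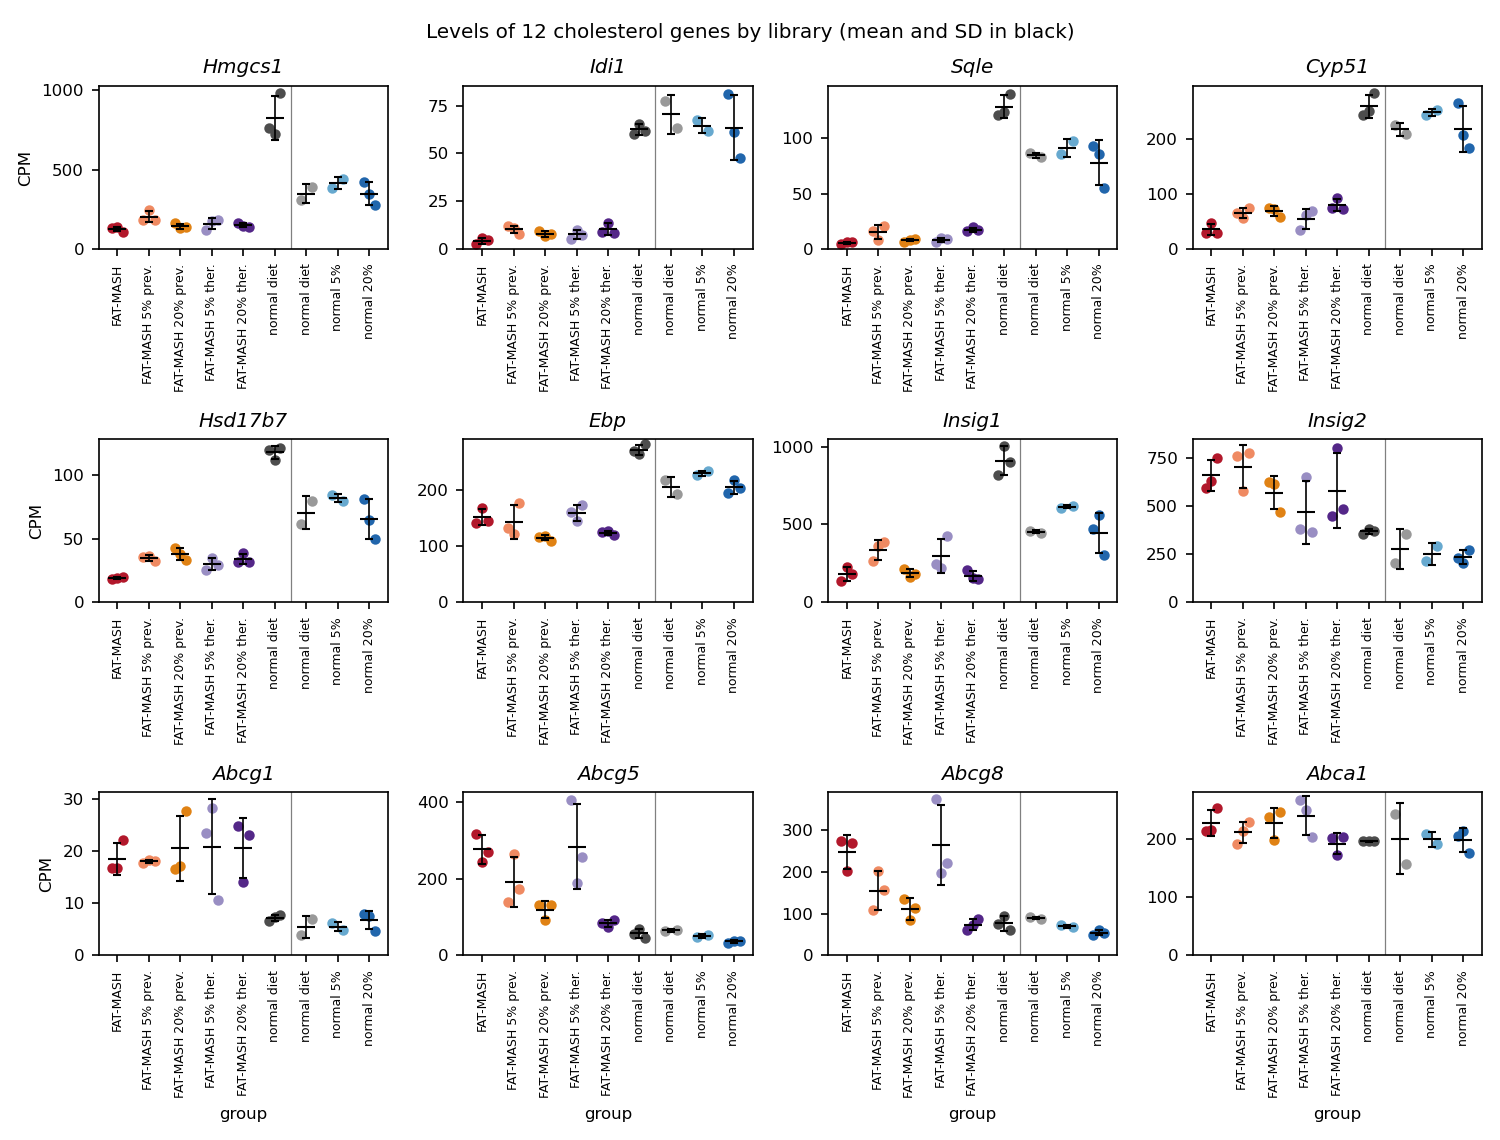
CPM per library for 12 of the 31 genes, with the mean and SD of each group in black; the grey line parts the first batch from the second, and each panel starts at 0. Hmgcs1, Idi1, Sqle and Cyp51 stay low in all FAT-MASH groups, while Abcg5 and Abcg8 are lower with 20% therapy than in FAT-MASH.

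Mannose at 5% over the whole regimen raised part of the synthesis arm. Each mannose group is set against the same 3 FAT-MASH libraries, so these comparisons are not independent of each other. Against FAT-MASH alone, 9 of the 31 genes were higher and none lower, beside 0.966% of all genes called higher and 1.31% lower. The 9 were the enzymes Hmgcs1, Mvd, Idi1, Sqle, Lss, Cyp51, Hsd17b7 and Sc5d together with Insig1. Sqle had 16.5, 8.09 and 20.8 CPM with 5% prevention, against 4.14, 5.93 and 6.45 CPM in FAT-MASH, a log2 fold change of 1.47 ± 0.25 (SE; adjusted p = 0.00462). Hsd17b7 had 35.9, 36.3 and 32.5 CPM with 5% prevention, against 18.3, 19.5 and 19.9 CPM in FAT-MASH (0.86 ± 0.12, SE; adjusted p = 0.00121). Both groups stood apart for these enzymes, although replicate 2 of 5% prevention was the lowest of its group for Sqle. The other enzymes called changed by between 0.60 (Lss) and 1.26 (Idi1) on the log2 scale, and Insig1 by 0.88 ± 0.22.

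Of these 9 calls, 7 were lost in at least 1 fit that left out a library. With FAT-MASH replicate 1 or 5% prevention replicate 1 left out, 2 of the 31 genes were called, and with replicate 3 of either group left out, 4 were. Sqle and Hsd17b7 kept their calls in each of these fits. The efflux genes were not called: Abcg5 had 139, 265 and 173 CPM with 5% prevention, against 318, 244 and 271 CPM in FAT-MASH (-0.53 ± 0.24, SE; adjusted p = 0.306), and replicate 2 lay within the FAT-MASH range. Abcg8 changed by -0.68 ± 0.25 (adjusted p = 0.174). The median log2 fold change was 0.68 over the synthesis enzymes and -0.11 over the efflux genes, beside 0.01 over all genes.

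With 20% mannose over the whole regimen, the biliary transporter genes were lower than in FAT-MASH, and few other members were called. Of the 31 genes, 3 were higher (Idi1, Cyp51 and Hsd17b7) and 4 lower (Tm7sf2, Ebp, Abcg5 and Abcg8), beside 6.83% of all genes higher and 8.26% lower, so the number called in each direction was not far from the share over all genes. Abcg5 had 133, 94.0 and 132 CPM with 20% prevention, against 318, 244 and 271 CPM in FAT-MASH, a log2 fold change of -1.21 ± 0.25 (SE; adjusted p = 0.00217). Abcg8 had 136, 84.5 and 115 CPM with 20% prevention, against 273, 202 and 270.1 CPM in FAT-MASH (-1.15 ± 0.25, SE; adjusted p = 0.00366). All 3 treated livers were below all 3 FAT-MASH livers for both transporters. Hsd17b7 had 42.9, 37.7 and 33.2 CPM with 20% prevention, against 18.3, 19.5 and 19.9 CPM in FAT-MASH (0.98 ± 0.12, SE; adjusted p = 3.49e-05), and Cyp51 changed by 0.95 ± 0.21 (SE; adjusted p = 0.00471). Sqle had 6.63, 8.47 and 9.05 CPM with 20% prevention, all above FAT-MASH, and was not called (0.56 ± 0.25, SE; adjusted p = 0.150).

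Scaling bears on the direction of this mixture. With libraries scaled by their totals alone, the median of all genes was 0.20 on the log2 scale and 7 members were higher and 2 lower, the 2 being the transporters, while Ebp (-0.40 in the main fit) came to -0.22 with an adjusted p of 0.163 and Tm7sf2 (-0.55) to -0.37 with an adjusted p of 0.139. The share of all genes called with totals alone is not given, so the 7 and 2 are not read as particular to the members. Without 20% prevention replicate 3, 4 genes were called. Of the 6 fits that each left out 1 library, Ebp lost its call in 4, those without FAT-MASH replicate 2 (log2 -0.32, adjusted p = 0.131) or 20% prevention replicate 1, 2 or 3. Tm7sf2 also lost its call in 4, those without FAT-MASH replicate 2 (log2 -0.37, adjusted p = 0.259) or 3 or 20% prevention replicate 2 or 3. Idi1 lost its call in 3, those without FAT-MASH replicate 1 (log2 0.61, adjusted p = 0.143) or 20% prevention replicate 1 or 3. Cyp51, Hsd17b7, Abcg5 and Abcg8 were called in all 6.

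Mannose at 5% in the last 6 weeks gave no call among the 31 genes, beside 0.0255% of all genes called higher and 0.0102% lower (0.0358% in all). In edgeR, 14 of the 31 had an unadjusted p below 0.05, 13 of them higher and 1 lower, and DESeq2 called 2. The shares over all genes are for adjusted p in edgeR. None is given for unadjusted p or for DESeq2, so these counts cannot be read as particular to the members. Hsd17b7 had the lowest adjusted p, 0.0725, with 25.6, 34.8 and 29.6 CPM under 5% therapy, against 18.3, 19.5 and 19.9 CPM in FAT-MASH (0.64 ± 0.12, SE), and its groups did not overlap. The libraries of this group were spread widely: Abcg5 had 408, 189 and 258 CPM, which spans the FAT-MASH values on both sides, and Abcg8 had 374, 198 and 222 CPM. Their changes were 0.04 ± 0.24 and 0.09 ± 0.25 (log2 ± SE).

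Mannose at 20% in the last 6 weeks raised 8 of the 19 synthesis enzymes and lowered 1, and lowered 2 of the 5 efflux genes. Of the 31 genes, 9 were higher (Idi1, Fdps, Sqle, Lss, Cyp51, Nsdhl, Hsd17b7, Dhcr7 and Srebf2) and 4 lower (Fdft1, Scap, Abcg5 and Abcg8), beside 10.2% of all genes higher and 11.3% lower (21.4% in all), the number lower being near the share over all genes. Abcg5 had 84.1, 75.1 and 93.1 CPM with 20% therapy, against 318, 244 and 271 CPM in FAT-MASH, a log2 fold change of -1.72 ± 0.25 (SE; adjusted p = 5.25e-05). Abcg8 had 61.1, 71.8 and 88.5 CPM with 20% therapy, against 273, 202 and 270.1 CPM in FAT-MASH (-1.75 ± 0.25, SE; adjusted p = 5.39e-05). Every treated liver lay below every FAT-MASH liver for both transporters. Sqle had 16.0, 19.4 and 17.0 CPM with 20% therapy, against 4.14, 5.93 and 6.45 CPM in FAT-MASH (1.67 ± 0.25, SE; adjusted p = 6.97e-05). Cyp51 had 74.2, 92.9 and 72.9 CPM with 20% therapy, against 29.7, 47.7 and 29.7 CPM in FAT-MASH (1.16 ± 0.21, SE; adjusted p = 5.22e-04). Both enzymes separated the groups without overlap.

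Not every enzyme moved with Sqle. Dhcr7 changed by 0.87 ± 0.19, Idi1 by 1.29 ± 0.26 and Hsd17b7 by 0.84 ± 0.12, while Hmgcs1 (0.25 ± 0.16; adjusted p = 0.302), Msmo1 (0.33 ± 0.16; adjusted p = 0.151) and Insig1 (-0.09 ± 0.22; adjusted p = 0.815) were not called (log2 ± SE). Fdft1, the enzyme just before Sqle, had 56.0, 52.3 and 52.5 CPM with 20% therapy, against 66.1, 76.7 and 62.8 CPM in FAT-MASH, and changed by -0.35 ± 0.12 (SE; adjusted p = 0.0483). Its groups did not overlap, but of the 6 fits that left out a library the call held in the one without FAT-MASH replicate 3 only. With library totals alone, which put the median of all genes at 0.30, Fdft1 changed by -0.05 (adjusted p = 0.804), and without FAT-MASH replicate 2 by -0.26 (adjusted p = 0.238). Scap was likewise -0.17 with library totals alone (adjusted p = 0.279), and that scaling gave 15 members higher and 2 lower, the 2 being Abcg5 and Abcg8. No share of all genes called under that scaling is given, so the 15 and 2 are not read as particular to the members. Without FAT-MASH replicate 1, 8 genes were called.

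Several of the higher calls also depended on single libraries. Fdps lost its call in 4 of the 6 fits that each left out 1 library, those without FAT-MASH replicate 1, 2 or 3 or 20% therapy replicate 1 (log2 1.07, adjusted p = 0.139). Nsdhl lost its call in 4, those without FAT-MASH replicate 1 (log2 0.40, adjusted p = 0.202) or 3 or 20% therapy replicate 2 or 3. Lss was lost without FAT-MASH replicate 1 (adjusted p = 0.0678) or 20% therapy replicate 1, and Srebf2 without FAT-MASH replicate 1 (log2 0.27, adjusted p = 0.111). The lower call of Scap was lost without 20% therapy replicate 1 (adjusted p = 0.0585). Idi1, Sqle, Cyp51, Hsd17b7, Dhcr7, Abcg5 and Abcg8 were called in all 6.

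Abcg1 did not follow the other transporters. It had 24.8, 14.0 and 23.0 CPM with 20% therapy, against 16.8, 16.7 and 22.1 CPM in FAT-MASH (0.16 ± 0.27, SE; adjusted p = 0.745), and the groups overlapped. Abca1 had 202, 172 and 203 CPM with 20% therapy, against 214, 216 and 254 CPM in FAT-MASH (-0.25 ± 0.12, SE; adjusted p = 0.146), with every treated liver below every FAT-MASH liver and no call. The median log2 fold change was 0.54 over the synthesis enzymes and -0.25 over the efflux genes.

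**Figure D3:**
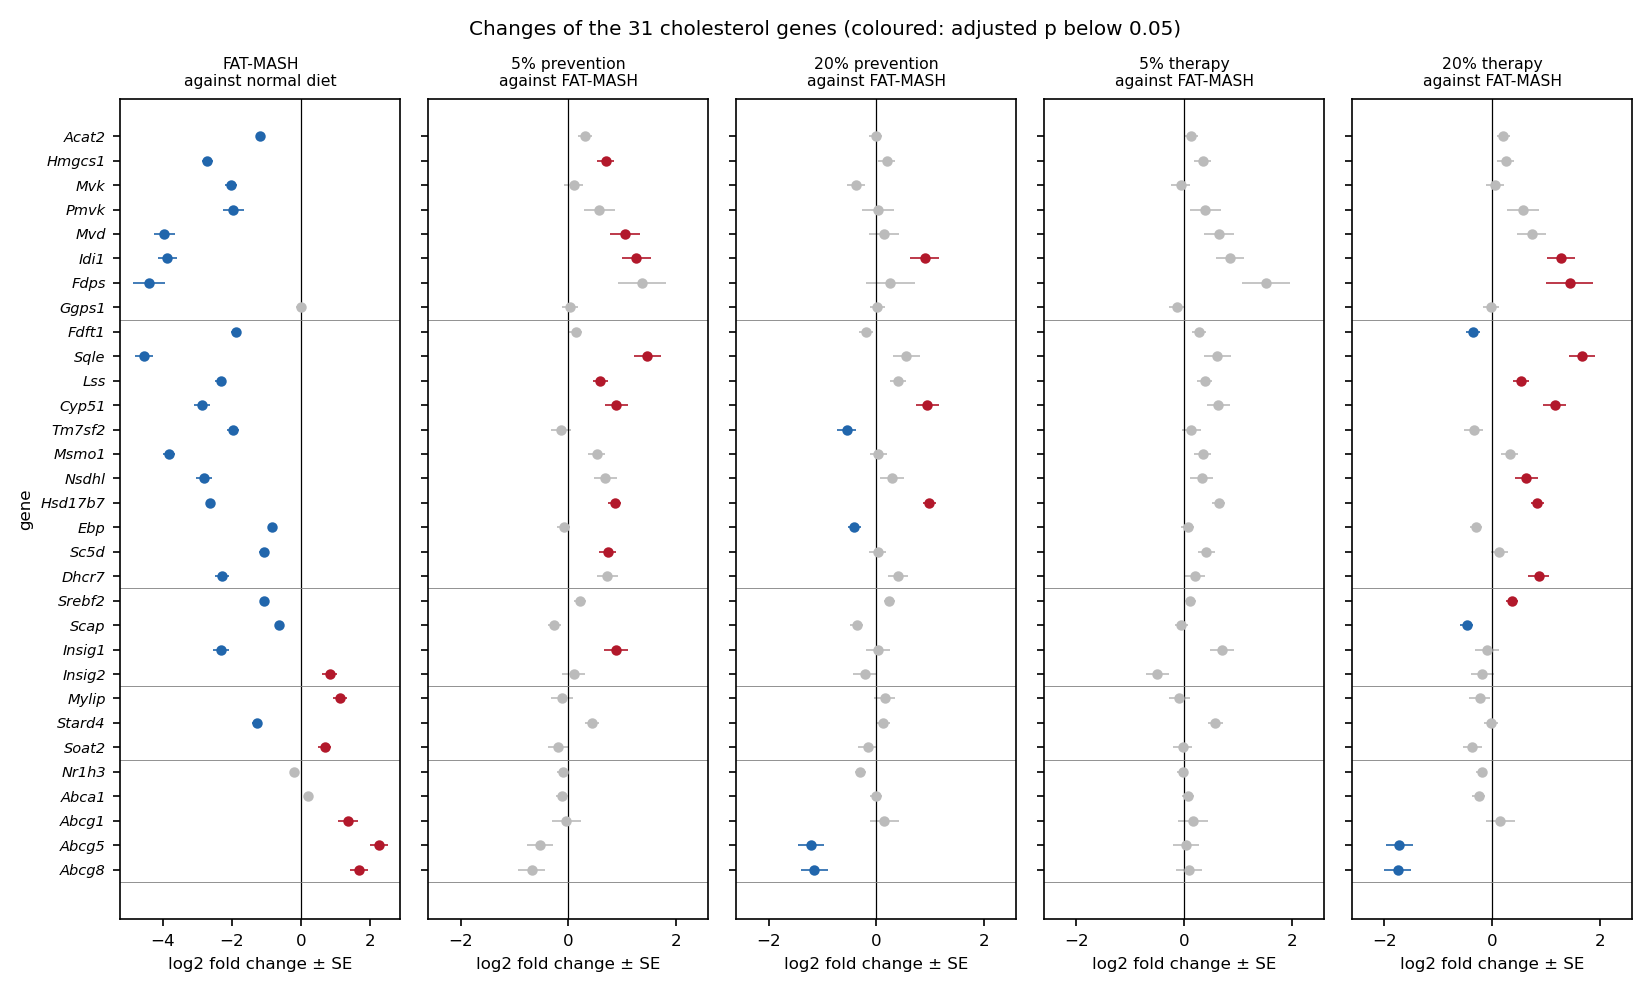
Log2 fold change of each of the 31 genes, with its SE as a bar, in FAT-MASH against normal diet and in each mannose group against FAT-MASH; red marks genes called higher, blue genes called lower, and grey the rest. Abcg5 and Abcg8 are red in the first panel and blue in both 20% panels; the first panel has a wider axis than the other 4, and all panels from the second on share the FAT-MASH libraries.

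Markers of other cells shifted with mannose as well. With 20% therapy, 8 of 8 markers of dividing cells were higher than in FAT-MASH, with sums of 111 to 345 CPM in treated livers, against 10.19 to 14.99 CPM in FAT-MASH, and 5 of 6 cholangiocyte markers were higher, with sums of 166 to 755 CPM in treated livers, against 98.0 to 119 CPM in FAT-MASH. Of 8 hepatocyte markers, 5 were lower, with sums of 79840 to 85260 CPM in treated livers, against 105500 to 116800 CPM in FAT-MASH. With 20% prevention, 8 of 8 dividing-cell markers were higher (78.1 to 93.7 CPM), 4 of 6 cholangiocyte markers were higher (206 to 531 CPM) and 2 of 8 hepatocyte markers were lower (90710 to 111100 CPM). With 5% prevention, 4 of 8 dividing-cell markers were higher (27.5 to 45.1 CPM), as was 1 of 6 cholangiocyte markers, with sums of 175 to 285 CPM that did not overlap those of FAT-MASH. Of 8 stellate cell markers, 2 were higher with 20% therapy, with sums of 495 to 1017 CPM in treated livers, against 466 to 601 CPM in FAT-MASH. No marker of these lists was at 0 counts in these FAT-MASH groups. Whether these shifts had a part in the changes of the cholesterol genes was not tested.

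Set against normal diet, each mannose group still had a lowered synthesis arm. The number of the 31 genes called higher and lower was 5 and 22 with 5% prevention (12.3% and 10.1% of all genes), 5 and 23 with 20% prevention (18.2% and 15.1%), 5 and 22 with 5% therapy (7.04% and 5.89%) and 3 and 23 with 20% therapy (19.4% and 16.7%, 36.1% in all). The median level of the 19 enzymes, as a percentage of their normal-diet mean, was 20.0% in FAT-MASH, 26.3% with 5% prevention, 23.6% with 20% prevention, 23.7% with 5% therapy and 25.5% with 20% therapy. Sqle remained at 13.6% of normal diet with 20% therapy, a log2 fold change of -2.88 ± 0.25 (SE; adjusted p = 4.66e-08). Sc5d was the one enzyme besides Ggps1 that was not called with 5% prevention, at 79.2% of normal diet (-0.34 ± 0.16, SE; adjusted p = 0.140).

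The biliary transporters were nearer to normal diet with 20% mannose. With 20% therapy, Abcg8 had 61.1, 71.8 and 88.5 CPM, against 75.5, 95.1 and 60.4 CPM on normal diet, and the groups overlapped (-0.06 ± 0.25, SE; adjusted p = 0.880). Abcg5 had 84.1, 75.1 and 93.1 CPM, against 56.7, 69.6 and 46.3 CPM on normal diet, and all treated livers were above all normal-diet livers without a call (0.55 ± 0.25, SE; adjusted p = 0.0922). With 20% prevention, Abcg5 was called higher than on normal diet (1.06 ± 0.25, SE; adjusted p = 0.00259) and Abcg8 was not (0.54 ± 0.25, SE; adjusted p = 0.107). In edgeR with library totals alone, Abcg8 was called higher there (0.79, adjusted p = 0.0153). It was also called without the filter on low counts (0.54, adjusted p = 1.17e-04). Abcg1 stayed higher than normal diet in every FAT-MASH group, at between 251% and 290% of the normal-diet mean, and Mylip at between 187% and 245%. Nr1h3 was called lower than on normal diet with 5% prevention (-0.29 ± 0.10), 20% prevention (-0.48 ± 0.10) and 20% therapy (-0.38 ± 0.10), but with library totals alone no call held, at -0.11 (adjusted p = 0.472), -0.23 (adjusted p = 0.0891) and -0.01 (adjusted p = 0.960). The 5% prevention call was also lost with any 1 of its 6 libraries left out, for example without 5% prevention replicate 2 (log2 -0.24, adjusted p = 0.165).

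**Figure D4:**
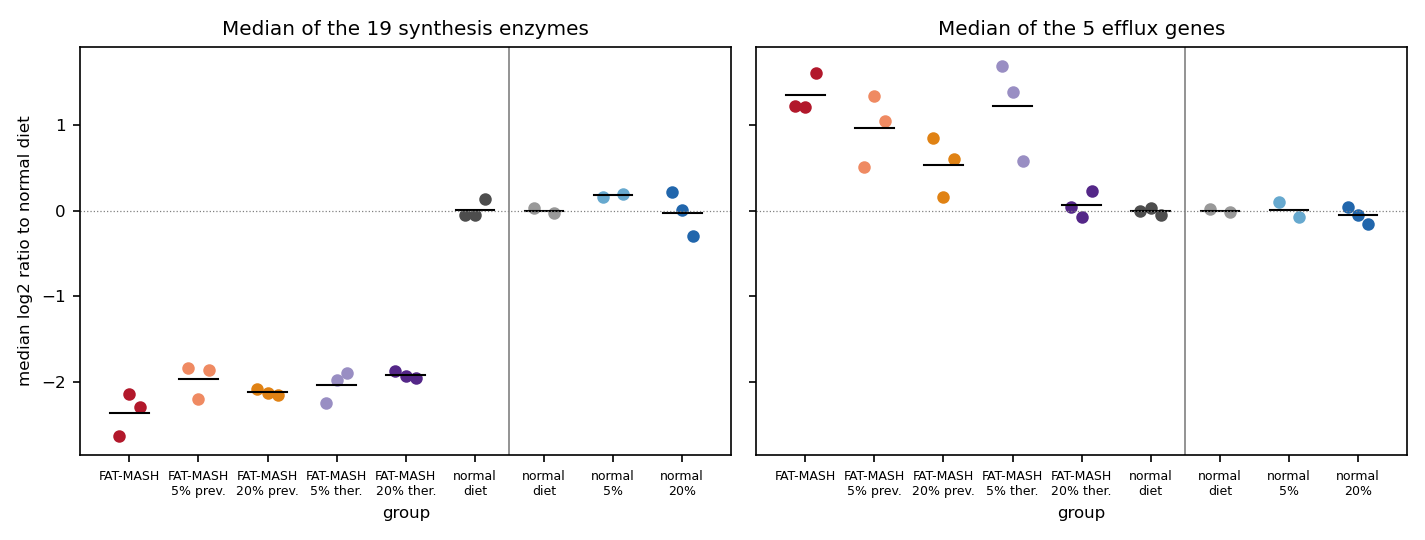
Median over the 19 synthesis enzymes (left) and the 5 efflux genes (right) of the log2 ratio to normal diet of the same batch, 1 point per library and a line at each group mean. Synthesis medians lie between -2.64 and -1.84 in the FAT-MASH groups, whereas efflux medians run from 1.69 in one 5% therapy liver to -0.075 in one 20% therapy liver.

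The medians by library put the arms side by side. The synthesis median was -1.88, -1.94 and -1.96 in the 20% therapy livers and -2.64, -2.14 and -2.29 in the FAT-MASH livers, so every treated liver lay above every FAT-MASH liver. The efflux median was 0.04, -0.075 and 0.225 in 20% therapy livers and 1.22, 1.21 and 1.61 in FAT-MASH livers, again without overlap. The gene in the middle of the 5 need not be the same in each library: the median of the 5 genes' own changes with 20% therapy was -0.25, and Abcg1 changed by 0.16. With 5% therapy the efflux median by library was 1.69, 1.38 and 0.57, a spread that reaches below every FAT-MASH liver. Replicate 3, the lowest of these, also had the lowest macrophage and stellate markers of its group. Macrophage markers summed to 431 CPM in it and to 1194 and 1254 CPM in replicates 1 and 2, and stellate markers to 340.2 CPM in it and to 500.5 and 561 CPM in the others. The part of these markers in the spread was not tested.

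Under therapy, the transporters differed between doses of mannose. At 20% against 5% therapy, 2 of the 31 genes were higher (Sqle and Dhcr7) and 7 lower (Fdft1, Ebp, Scap, Insig1, Stard4, Abcg5 and Abcg8), beside 8.33% of all genes higher and 9.33% lower. Abcg5 had 84.1, 75.1 and 93.1 CPM at 20%, against 408, 189 and 258 CPM at 5% (-1.76 ± 0.25, SE; adjusted p = 6.70e-05), and Abcg8 changed by -1.84 ± 0.26 (SE; adjusted p = 5.30e-05). Sqle had 16.0, 19.4 and 17.0 CPM at 20%, against 6.35, 9.60 and 9.05 CPM at 5% (1.06 ± 0.24, SE; adjusted p = 0.00425). Insig1 had 209, 154 and 151 CPM at 20%, against 246, 221 and 425 CPM at 5%, where replicate 3 was far above the other two, and without that mouse the change was -0.45 (adjusted p = 0.154) rather than -0.80. Without 20% therapy replicate 3, 5 genes were called. Ebp lost its call in 5 of the 6 fits that left out a library, all but the one without 5% therapy replicate 2, and Scap in 4, those without 5% therapy replicate 1 or 3 or 20% therapy replicate 1 or 3. Insig1 was also lost without 20% therapy replicate 2 or 3, and Dhcr7 without 5% therapy replicate 1 or 20% therapy replicate 3. With library totals alone, 9 members were higher and 3 lower, the median of all genes being 0.29. The share of all genes called under that scaling is not given, so these counts are not read as particular to the members.

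Under prevention, no member was called between 20% and 5%, beside 0.107% of all genes called higher and 0.337% lower (0.445% in all). In edgeR, 14 members had an unadjusted p below 0.05, all of them lower at 20%, and DESeq2 called 4. These counts too have no share over all genes beside them. Insig1 had 214, 163 and 184 CPM at 20%, against 265, 361 and 384 CPM at 5% (-0.85 ± 0.22, SE; adjusted p = 0.0783), and Sc5d, with the lowest adjusted p, changed by -0.70 ± 0.16 (SE; adjusted p = 0.0544). The groups did not overlap for either gene.

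Between therapy and prevention, none of the 31 genes was called. At 5% mannose 0.0869% of all genes were called higher and 0.107% lower (0.194% in all), and at 20% these shares were 0.0255% and 0.0562% (0.0818% in all). At 5%, edgeR gave 6 members an unadjusted p below 0.05 and DESeq2 called 1. At 20% the counts were 7 and 1, again without a share over all genes. At 20%, Sqle had 16.0, 19.4 and 17.0 CPM with therapy, against 6.63, 8.47 and 9.05 CPM with prevention, without overlap (1.11 ± 0.24, SE; adjusted p = 0.0685). Abcg5 had 84.1, 75.1 and 93.1 CPM with therapy, against 133, 94.0 and 132 CPM with prevention (-0.51 ± 0.24, SE; adjusted p = 0.424).

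Mannose on normal diet was read in the second batch. At 5%, none of the 31 genes and 0% of all 18462 genes tested were called. In edgeR, 5 members had an unadjusted p below 0.05, with no share over all genes at that threshold, and DESeq2 called none. At 20%, none of the 31 and 0.00542% of all genes were called. The 2 members with an unadjusted p below 0.05, again without a share over all genes, were the biliary transporters. Abcg5 had 33.3, 38.7 and 38.5 CPM with 20% mannose, against 63.3 and 67.4 CPM without (-0.83 ± 0.12, SE; adjusted p = 0.0710). Abcg8 had 48.8, 60.2 and 53.2 CPM with 20% mannose, against 90.9 and 87.4 CPM without (-0.72 ± 0.12, SE; adjusted p = 0.0924). All treated livers were lower for both genes, and DESeq2 called both lower. At 5%, Abcg5 had 47.8 and 53.7 CPM and Abcg8 had 72.9 and 67.7 CPM, below the untreated mice as well. With 2 mice in each group, 16 of the 31 genes lay wholly above the untreated mice and 4 wholly below. Such separation was thus not particular to the transporters, and no share over all genes is given for it.

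Among the enzymes, Sqle had 92.7, 85.8 and 54.5 CPM with 20% mannose, against 86.0 and 83.0 CPM without (-0.12 ± 0.19, SE; adjusted p = 0.998). The median log2 fold change over the 19 enzymes was -0.01 at 20% and 0.19 at 5%. Replicate 3 of the 20% group had the lowest synthesis median of the batch, at -0.29.

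The effect of mannose over 12 weeks was then compared between diets in 1 fit of all 25 libraries. At 20%, the signed log2 change was higher on FAT-MASH than on normal diet for 2.26% of all genes and lower for 3.41% (5.67% in all), and 1 of the 31 was called. This was Hsd17b7, whose change within its batch was 0.98 on FAT-MASH and -0.10 on normal diet, a difference of 1.08 ± 0.21 (SE; adjusted p = 0.00387). Cyp51 (0.94 ± 0.30; adjusted p = 0.0664) and Idi1 (1.05 ± 0.37; adjusted p = 0.0939) had differences of like size that were not called. For Abcg5 the change was -1.21 on FAT-MASH and -0.83 on normal diet, and the difference of -0.39 ± 0.33 (SE; adjusted p = 0.567) was not called. At 5%, 0.524% of all genes and none of the 31 were called. In edgeR 5 members had an unadjusted p below 0.05 and DESeq2 called 2, with no share over all genes for either count. The effect on each diet was read within 1 batch, FAT-MASH in the first and normal diet in the second, so in these differences diet and batch cannot be told apart.

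Of 20 further genes of sterol handling, 7 were higher and 3 lower in FAT-MASH than on normal diet, beside 7.81% and 5.92% of all genes. Scarb1, the hepatic HDL receptor, had 361, 365 and 401 CPM in FAT-MASH livers, against 179.6, 205 and 191 CPM on normal diet (0.97 ± 0.13, SE; adjusted p = 4.53e-05). With 20% therapy it had 168, 203 and 198 CPM, against 361, 365 and 401 CPM in FAT-MASH (-0.98 ± 0.13, SE; adjusted p = 1.72e-05), without overlap. Aacs, the acetoacetyl-CoA synthetase that feeds ketone carbon into sterol synthesis, had 25.7, 27.5 and 19.5 CPM in FAT-MASH livers, against 187, 192 and 183 CPM on normal diet (-2.95 ± 0.21, SE; adjusted p = 1.92e-08). Aacs was called higher than FAT-MASH with 5% prevention (1.06 ± 0.20), 5% therapy (1.52 ± 0.20; adjusted p = 0.00632) and 20% therapy (0.99 ± 0.20). Rnf145, a ubiquitin ligase induced through LXR, was higher in FAT-MASH than on normal diet by 1.35 ± 0.11 (SE; adjusted p = 2.01e-07) and higher again with 20% therapy against FAT-MASH by 0.50 ± 0.11 (SE; adjusted p = 0.00258), unlike Abcg5 and Abcg8. The counts of the 20 genes called higher and lower against FAT-MASH were 2 and 1 with 5% prevention (0.966% and 1.31% of all genes), 6 and 1 with 20% prevention (6.83% and 8.26%), 1 and 0 with 5% therapy (0.0255% and 0.0102%) and 5 and 1 with 20% therapy (10.2% and 11.3%).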

How the data were processed

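Poly(A) RNA of mouse liver was sequenced in 25 libraries. The values are raw read counts per gene as deposited by the authors. Per the submitters' processing notes, reads were aligned with STAR to GRCm39 and counted with featureCounts 2.0.6; per the file headers, the counter was featureCounts 2.0.1 with GENCODE M31, with no strand or multi-mapping option, so reads of overlapping genes on either strand cannot be assigned. Symbols were matched by Ensembl ID. Counts were scaled by TMM, filtered with filterByExpr and tested with edgeR 4.0.16 (quasi-likelihood, two-sided, R 4.3.3), with Benjamini-Hochberg adjustment over all genes and a threshold of 0.05. The first batch (18 libraries, 6 groups) and second batch (7 libraries, 3 groups) were fitted apart, and differences between diets in all 25 with a batch term. SE is the log2 fold change divided by the root of F. DESeq2 1.42.0, limma 3.58.1 (voom), other scalings, no filter, a replicate block and leaving out each library were alternatives. The fit was tested on simulated data. The members, roles, other sterol genes and marker lists were chosen with earlier results of these data known; all 31 members could be named, and of the other sterol genes at most 5 called per comparison, by smallest p. Depth is given in the report; p-values measure the spread between mice.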

Additional observations from a re-analysis of the deposited data

Results flagged for a closer look

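The level of Abca1 in the second batch was uneven on normal diet. Scaled over all 25 libraries, normal-diet replicate 4 had 277 CPM, whereas the other 4 normal-diet mice, from both batches, had between 179 and 189 CPM. Its distance from the rest passed Dixon's test at the 95% level, which flags about 1 in 20 groups by chance.

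The effect of 20% mannose on Hsd17b7 differed between diets by 1.08 on the log2 scale (edgeR, adjusted p = 0.00387), being higher on FAT-MASH than on normal diet. The effect on FAT-MASH was read in the first batch and that on normal diet in the second, so diet and batch cannot be told apart here. The adjusted p stayed between 1.67e-06 and 0.0267 over the 20 alternatives.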

How the results depend on the processing

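Counts below are of the 31 genes, without the share over all genes under each setting. Leaving out 1 library gave 26 to 28 calls for FAT-MASH against normal diet (main 28), 2 to 8 for 5% prevention (main 9), 4 to 6 for 20% prevention (main 7), 0 to 1 for 5% therapy (main 0) and 8 to 13 for 20% therapy (main 13), each against FAT-MASH. It gave 0 to 1 for 20% against 5% prevention (main 0), 5 to 10 for 20% against 5% therapy (main 9), 0 to 1 for therapy against prevention at 5% (main 0), 0 to 2 for 20% mannose on normal diet (main 0; 2 without normal-diet replicate 5), 1 to 3 for the difference between diets at 20% (main 1; 2 without FAT-MASH replicate 2 and 3 without normal diet with 20% mannose replicate 1) and 0 to 1 for that at 5% (main 0). Where this left 1 mouse in a group, it was assumed to vary like the other groups.

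Without the filter on low counts, calls were 17 for 5% prevention, 11 for 20% prevention, 9 for 5% therapy, 10 for 20% against 5% prevention, 5 and 7 for therapy against prevention at 5% and 20%, 2 for 20% mannose on normal diet, and 4 and 4 for the differences between diets at 20% and 5%. DESeq2 gave 14 for 5% prevention, 2 for 5% therapy, 4 for 20% against 5% prevention, 1 and 1 for therapy against prevention, 2 for 20% mannose on normal diet, and 3 and 2 for the differences between diets. Library totals alone gave 1 for 5% therapy, 1 for therapy against prevention at 20% and 4 for the 20% difference between diets. Voom gave 2 for 20% against 5% prevention, 1 for therapy against prevention at 20% and 1 for 20% mannose on normal diet; all 25 libraries together gave 1 for 20% against 5% prevention. The share over all genes under these settings is not set beside these counts. They are therefore not read as a rise particular to the members. The causes were not tested.

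With library totals alone, 20% therapy against normal diet turned to 0.37 for Ggps1 (adjusted p = 0.0400) and 0.35 for Abca1 (adjusted p = 0.0283), with the median of all genes at 0.39. For the 31 genes over all comparisons and alternatives, 7325 values kept their side of the threshold, 172 gained a call and 127 lost one. A further 2 changed sign with a call in the main fit or the alternative. A value called in neither fit counts among the 7325 even where its sign changed.

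Replicate numbers in the first batch showed no sign of pairing the mice, though low correlations cannot show that mice were unpaired. Deviations of same-numbered libraries had a median correlation of -0.017, against 0.005 for other pairs. Of 18 libraries, 1 correlated best with its own number. With a replicate block, calls were 28 for FAT-MASH against normal diet, 9 and 6 for 5% and 20% prevention, 0 and 13 for 5% and 20% therapy, and 8 for 20% against 5% therapy. In the second batch, the deposited columns carry other numbers than the titles, and normal diet shares 11 and 13 with both mannose groups. Deviations of libraries with the same column number correlated at 0.063 for 5% mannose and at 0.053 and -0.017 for 20%, so these numbers do not show pairs either. A replicate block on them, chosen after seeing the data, gave 0 calls for 5% mannose on normal diet, 2 for 20% (Abcg5 at -0.87, adjusted p = 0.0165, and Abcg8 at -0.81, adjusted p = 0.0227), and 1 and 0 for the differences between diets at 20% and 5%.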
